A study of Aspergillus niger with 6 samples.

Results

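The gene models described here are those of Aspergillus niger that were read at a measurable level but carry no identifier of the reference strain CBS 513.88. The deposited table gives each gene model an ATCC 1015 (Aspni5) or alternative identifier and, where one was paired, a CBS 513.88 identifier that begins with An. Of the 15431 gene models listed, 1317 had no such identifier. A model was kept when its raw counts summed to at least 150 over the 6 libraries, which left 146 models, called members in what follows. The summed counts chose the members, so their abundance is given as a description, with no test. The cell for the CBS 513.88 identifier held 0 for 133 of the members and a missing-value mark for 13. An empty pairing says that no identifier was assigned, which is not the same as the absence of the sequence from the other strain.

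Aspergillus niger is a filamentous fungus that grows as hyphae and secretes enzymes that break down plant polymers, and its isolates differ in gene content as well as in how their genomes were annotated. Aspni5 is an annotation of strain ATCC 1015, whereas identifiers beginning with An come from the sequenced enzyme producer CBS 513.88, and both differ from the laboratory strain N402 that was grown here. Model names carry the method that drew them: gw1 and e_gw1 models follow protein similarity (GeneWise), and estExt models were extended with expressed sequence tags. None of the members has a name or a function in the tables used here, and so none is given a role below.

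RNA came from mycelium of strain N402 in shake flasks, with 2 cultures (A and B) for each of 3 conditions. The glucose group was grown for 48 h on 1% glucose. The willow group had the same 48 h on glucose, after which 1.5 g of wet mycelium was moved to 1% ball-milled willow for 24 h, and the glucose-added group then had a further 5 h with glucose. All cultures were held at 28 °C. Carbon source, transfer to a new flask and age of the culture changed together between glucose and the other groups and cannot be told apart. Likewise, the added glucose and 5 h more of culture age changed together between willow and glucose-added cultures. Total RNA was depleted of ribosomal RNA and sequenced as paired ends on the SOLiD platform. Between 434508 and 775667 reads per library were counted to genes, which was 1.46% to 3.15% of all entries of a library, in genes or not. Reads that aligned to several places and were counted to no gene made up 58.4% to 75.7%, more in B than in A of every condition. Markers of conidia and conidiophores, which could be mixed with hyphae, summed to 116 and 103 counts per 1e6 (CPM) on glucose, 241 and 247 on willow, and 243 and 150 with glucose added over 6 genes. Most of that sum was fwnA, a pigment gene, while the developmental regulators brlA, abaA and wetA were each at 24.2 CPM or less in every library. The part of conidial RNA in the results below was not tested.

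Members were a smaller share of the models without an identifier than expressed genes were among the rest. They made up 11.09% of the 1317 models, whereas 3324 of the 14114 genes with an identifier (23.55%) reached 150 counts, and these 3324 matched genes serve as the comparison below. No count in any library was found for 567 of the 1317 models (43.05%), against 22.34% of genes with an identifier. Another 604 of the 1317 had 1 to 149 counts. The 14114 genes include 4234 models taken from the annotation that gave the identifiers, all of which carry one. Only 147 of these 4234 (3.47%) reached 150 counts, so without them the 23.55% would be higher. Their part in the 22.34% without a count was not tested. The last model inside the limit was MWR_mwrfum1, with 21 and 28 counts on glucose, 30 and 29 on willow, and 30 and 13 with glucose added. Just outside it was gw1.7.1050.1, with 147 counts in all, of which 107 were from the glucose cultures (57 and 50).

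The kind of model differed between the members and the models that were left out. Among models without an identifier, 80 of 189 estExt models were members (42.3%), against 40 of 518 gw1 and e_gw1 models (7.72%) and 25 of 603 Cscaffold and fgenesh1_pm models (4.15%). The same order held for genes with an identifier, of which 62.2% of estExt, 20.7% of gw1 and e_gw1 and 18.0% of Cscaffold and fgenesh1_pm models reached 150 counts. Models taken from the annotation that gave the identifiers have no counterpart without one and are not in these shares. Member models were 1380 bp long at the median and ranged from 135 to 18855 bp, against a median of 1622.5 bp for matched genes. Per length, the median member stood at 102 CPM per kb, with a range from 2.09 to 206650 CPM per kb, and the median matched gene at 64.8. The median member differed between cultures A and B by 1.35-fold (glucose), 1.30-fold (willow) and 1.36-fold (glucose added), against 1.29-fold, 1.31-fold and 1.29-fold for the median matched gene.

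Between 6.35% and 9.83% of all reads counted to genes fell in the 146 members. The share was 9.83% (Wilson 95% interval 9.76% to 9.91%) and 8.86% (8.79% to 8.92%) in glucose cultures A and B. It was 7.58% (7.51% to 7.65%) and 7.64% (7.56% to 7.72%) on willow. After glucose addition it was 6.35% (6.30% to 6.41%) and 8.01% (7.93% to 8.09%). Both glucose libraries lay above the other 4, whereas the 2 glucose-added libraries lay on either side of the willow pair. The mean share was 9.35% ± 0.689 (SD, n = 2) on glucose, 7.61% ± 0.0441 on willow and 7.18% ± 1.17 after glucose addition. Willow minus glucose came to -1.74 percentage points (exact permutation test, two-sided, p = 0.333, Benjamini-Hochberg 0.5 over 3 pairs), and 0.333 is the smallest p that 2 against 2 libraries allow. The difference between glucose-added and glucose cultures was -2.16 points (exact p = 0.333, adjusted 0.5). Between glucose-added and willow cultures it was -0.43 points (exact p = 1, adjusted 1), and without glucose-added replicate A it became 0.40.

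**Figure D1:**
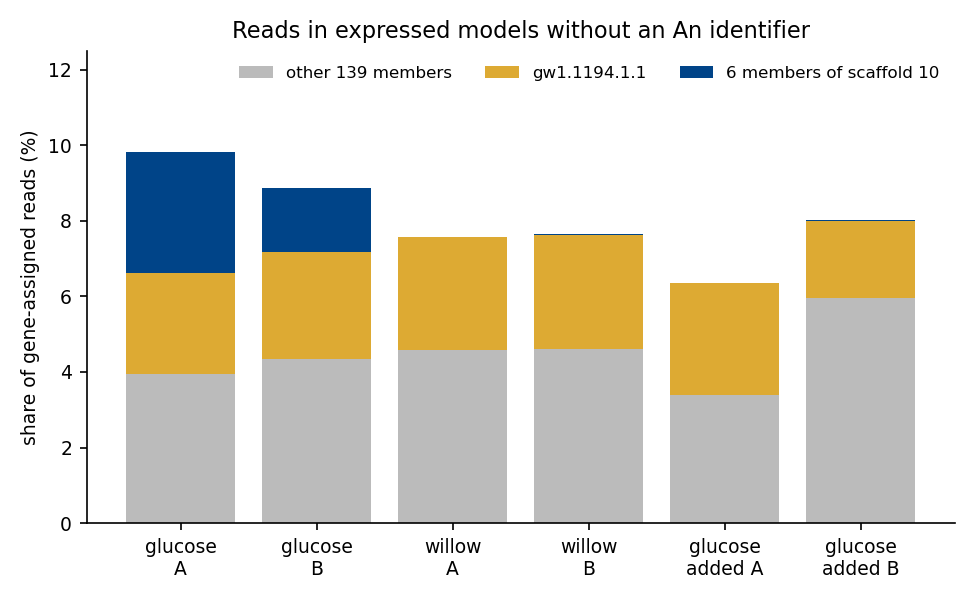
Share of gene-assigned reads (%, vertical axis from 0) held by the 146 members in each of the 6 libraries, stacked by the model gw1.1194.1.1, 6 models of scaffold 10 and the other 139 members. The blue segment is 3.21% and 1.70% in the glucose libraries and at most 0.0135% elsewhere. Its 6 models were picked because they were almost wholly confined to glucose.

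Few members carried most of these reads. The 5 most counted members of each library held 59.3% to 72.8% of its member reads. A single model, gw1.1194.1.1, took 2.06% to 3.03% of all reads counted to genes. A group of 6 members on scaffold 10 took 3.21% and 1.70% in the glucose libraries and between 0.00232% and 0.0135% in the other 4. Without these 6, a choice made after the data were seen, the member share was 6.62% and 7.16% on glucose, 7.56% and 7.63% on willow, and 6.35% and 8.01% with glucose added. Willow minus glucose then turned to 0.705 points, and glucose-added minus glucose to 0.285 points. The 6 were picked as the scaffold 10 members with at least 90% of their summed mean CPM on glucose. Leaving them out therefore had to lower the glucose share, and the change of sign is a description, with no test.

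The 5 members with the largest mean RPKM (reads per kilobase and library size, the deposited unit) are taken in order. First came gw1.1194.1.1, a model of 135 bp on a small scaffold numbered 1194 in its identifier, at 206650 CPM per kb. Its level was 22889 and 25224 CPM on glucose, 35325 and 35705 on willow, and 27868 and 20376 with glucose added. Willow was above glucose in both cultures without overlap, by a log2 fold change of 0.56 ± 0.49 (SE), which did not pass the test (edgeR quasi-likelihood test, Benjamini-Hochberg adjusted p = 0.425). Reads that a model shares with near-identical copies are left out as multiply aligned, and whether this model has copies was not tested.

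Second was Cscaffold2000728, a 624 bp model placed between An02g10120 and An02g10230 in the order of its series. Its level was 2571 and 6669 CPM on glucose, 22783 and 18724 on willow, and 2089 and 22475 with glucose added. Both willow libraries lay above both glucose libraries, while the glucose-added pair spanned nearly the whole range, from the lowest library to just below willow A. Willow exceeded glucose by 2.17 ± 0.69 on the log2 scale (edgeR, adjusted p = 0.0181), a call that DESeq2 did not make (adjusted p = 0.211). The multiply aligned share of the 2 glucose-added libraries was 58.8% in A and 74.8% in B, and its part in their difference was not tested.

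Next in RPKM was Cscaffold10000173 of scaffold 10, described with its group below. After it, estExt_Genewise1.C_160552 (567 bp) stood at 1679 and 1048 CPM on glucose, 917 and 1305 on willow, and 2217 and 2504 with glucose added. Glucose and willow overlapped, and the glucose-added pair lay above all others. It rose after glucose addition against willow by 1.09 ± 0.37 (log2, edgeR adjusted p = 0.0239), which was lost without willow replicate A (0.193), glucose-added replicate A (0.056) or glucose-added replicate B (0.0923). The fifth, e_gw1.2.2372.1 (1404 bp), was at 1603 and 2536 CPM on glucose, 2030 and 6479 on willow, and 1742 and 6862 with glucose added. Culture B was higher than A in every condition, and no comparison passed the test (willow against glucose 1.04 ± 0.54, edgeR adjusted p = 0.156).

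By condition, the members fell into groups of similar size. The highest mean level was on glucose for 53 members (36.3%, against 29.0% of matched genes). It was on willow for 46 (31.5%, against 36.0%) and after glucose addition for 47 (32.2%, against 35.0%). Both glucose libraries lay above all other 4 for 38 members (26.0%), against 14.4% of matched genes. Both willow libraries were the highest for 31 members (21.2%, against 23.9% of matched genes), and both glucose-added libraries for 19 (13.0%, against 20.1%). At the other end, both glucose libraries were below all others for 17 members (11.6%, against 12.6%), both willow libraries for 37 (25.3%, against 26%) and both glucose-added libraries for 36 (24.7%, against 15.6%). These differences between members and matched genes were not tested. At least 90% of the summed mean CPM came from glucose for 7 members (4.79%, against 0.903% of matched genes), from willow for 2 (1.37%, against 3.61%) and from glucose addition for 2 (1.37%, against 0.0602%), and all of these are described below. The 6 members of the scaffold 10 group were all among these 7, and among the 38 with both glucose libraries highest. Outside that group, only fgenesh1_pm.Cscaffold16000046 was so concentrated on glucose.

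**Figure D2:**
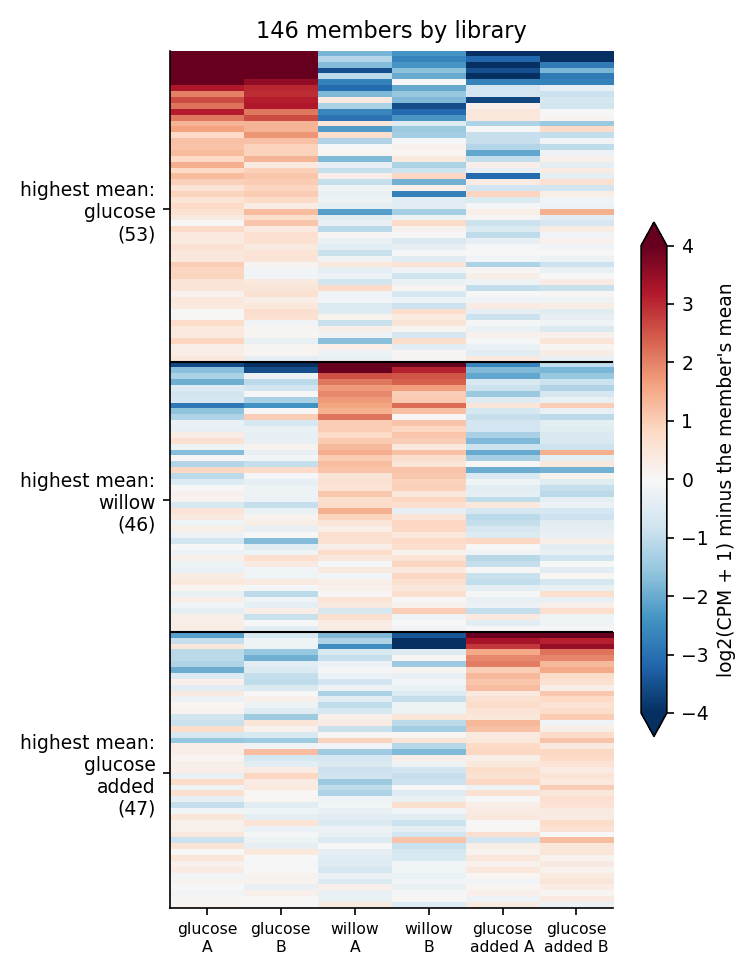
Each of the 146 members (rows) in each library (columns), as log2(CPM + 1) minus the member's mean over the libraries, with colours held between -4 and 4 and members grouped by the condition of their highest mean. The darkest glucose rows at the top are the members confined almost wholly to glucose, and most rows in all 3 blocks are pale.

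In the comparison of willow with glucose, 23 of 146 members rose and 32 fell (edgeR quasi-likelihood test, adjusted p threshold 0.05 over all 6181 tested genes). As shares these were 15.8% and 21.9%, and 6 of the 32 that fell were the group of scaffold 10. Over all tested genes 17.6% rose and 13.5% fell, and over the matched genes 18% and 17.7%. The median log2 fold change of the members was -0.25, against -0.08 over all tested genes and -0.13 over matched genes. The groups did not overlap for 44 members higher on willow, where 31.3% of all tested and 30.6% of matched genes were so, and for 63 lower on willow (33.3% of all tested and 36.8% of matched genes). All members passed the filter on low counts, which a member can do through the condition in which it is high. The limit on summed counts that chose the members can be reached in the same way. For members with few counts elsewhere, the direction was therefore partly set by that choice, which the p-values do not take into account. Changes are relative to the scaling: with total counts in place of TMM the median of all tested genes moved by -0.43, and 16 members were called higher and 58 lower. With upper quartile scaling it moved by -0.12, with 18 higher and 42 lower. In these bulk samples, fewer cells of a type and less RNA per cell cannot be told apart.

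**Figure D3:**
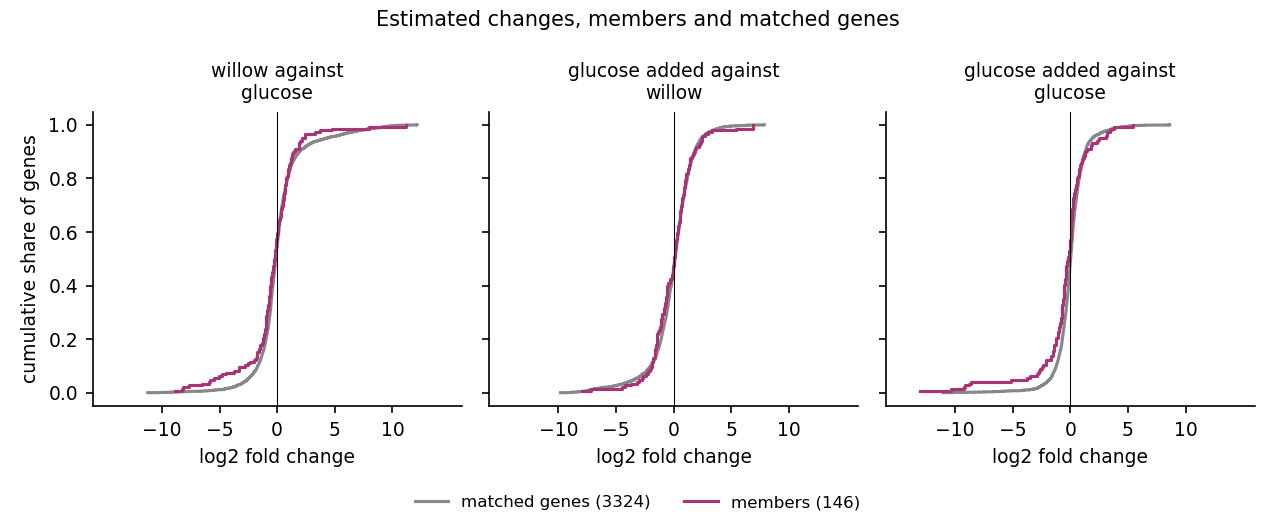
Cumulative share (vertical axis) of members and of matched genes at or below each log2 fold change (horizontal axis), in the 3 comparisons. In the 2 panels set against glucose the member curve lies above the other at its lower end, where the 6 members of scaffold 10 are below -5, and on willow the matched genes reach further at the upper end.

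Members of scaffold 10 held the 5 largest falls on willow relative to glucose. Of 10 members on this scaffold, 6 were called lower on willow, and none higher. The most counted of them, named after its values were seen, was estExt_GeneWisePlus.C_100437, a long model of 7352 bp. It stood at 12966 and 7275 CPM in the glucose libraries, 59.7 and 38.0 on willow, and 9.69 and 27.2 with glucose added. Both glucose libraries were more than 100 times higher than any other. On willow it fell by 7.67 ± 0.59 on the log2 scale (edgeR, adjusted p = 1.94e-10).

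By position, the group held a run of neighbours in the GeneWisePlus series, numbered 427, 429 and 437. The run sat between An18g02305 and An18g02860 with no matched model of that series among them. Matched genes of other series, such as An18g02600 to An18g02752, have identifiers between these flanks. The first, estExt_GeneWisePlus.C_100427 (2129 bp), was at 458 and 413 CPM on glucose, 0 and 2.71 on willow, and 0 and 2.27 with glucose added. With a single count on willow, it was 364-fold lower there than on glucose (exact 95% counting interval 65.1 to 14395, edgeR adjusted p = 4.76e-10). The following model of the series, estExt_GeneWisePlus.C_100429 (1679 bp), was at 4962 and 1768 CPM on glucose, 17.1 and 5.42 on willow, and 3.63 and 0 with glucose added. Its log2 fold change on willow was -8.13 ± 0.64 (edgeR, adjusted p = 3.42e-10). In the glucose-added cultures its 3 counts gave a level 1379-fold lower than on glucose (exact counting interval 472 to 6688, edgeR adjusted p = 3.97e-10).

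Cscaffold10000173 (792 bp) lay between An18g02600 and An18g02752, within the same stretch of matched identifiers. Its level was 6446 and 4720 CPM on glucose, 78.9 and 40.7 on willow, and 8.48 and 22.7 with glucose added. The 3 conditions did not overlap, with glucose highest and glucose-added lowest. It fell by 6.52 ± 0.52 on willow (edgeR, adjusted p = 3.30e-10), and in the glucose-added cultures it fell by 8.60 ± 0.58 relative to glucose (edgeR, adjusted p = 2.75e-10). The further drop from willow to glucose addition, -2.08 ± 0.57 (edgeR, adjusted p = 0.0056), was lost without willow replicate A (0.0998) or glucose-added replicate A (0.17). Among the 17 matched genes from An18g02600 to An18g02752, these flanks included, 9 were tested, of which 8 were higher on willow and only An18g02650, named after its values were seen, was lower (-4.84 ± 0.42, edgeR adjusted p = 1.37e-09). Some of the 8, such as An18g02730 (4 and 2 counts on glucose), could pass the filter on low counts only through the other conditions.

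The other 2 of the group come from the gw1 series, whose numbers do not follow the scaffold. For gw1.10.303.1 (1071 bp) the levels were 2419 and 993 CPM on glucose, 4.26 and 2.71 on willow, and 0 in both glucose-added libraries. Willow, with 3 counts, was 464-fold lower than glucose (exact counting interval 159 to 2250, edgeR adjusted p = 1.52e-10). Glucose-added cultures, with no count, were at least 702-fold lower than glucose, taking 3 counts over both libraries as the limit (edgeR adjusted p = 2.75e-10). For gw1.10.247.1 (1335 bp), chosen after its values were seen, they were 157 and 75.8 CPM on glucose, 0 and 5.42 on willow, and 0 in both glucose-added libraries. Its 2 counts on willow put it 47.7-fold below glucose (exact counting interval 13.0 to 397, edgeR adjusted p = 7.69e-06).

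Together the 6 models summed to 27408 and 15245 CPM on glucose, 160 and 94.9 on willow, and 21.8 and 52.1 with glucose added. Glucose A was above glucose B for each of the 6. Each of them could reach the limit on summed counts only through glucose, so the direction of their change was set by the choice of members. The remaining 4 members of scaffold 10 (estExt_C_100485, estExt_Genewise1.C_101080, e_gw1.10.41.1 and estExt_Genewise1.C_101244) were not called on willow. Among them only estExt_Genewise1.C_101080 was called lower in glucose-added than in glucose cultures (-1.07, edgeR adjusted p = 0.0327), a call lost in DESeq2, without glucose replicate B and without glucose-added replicate A.

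**Figure D4:**
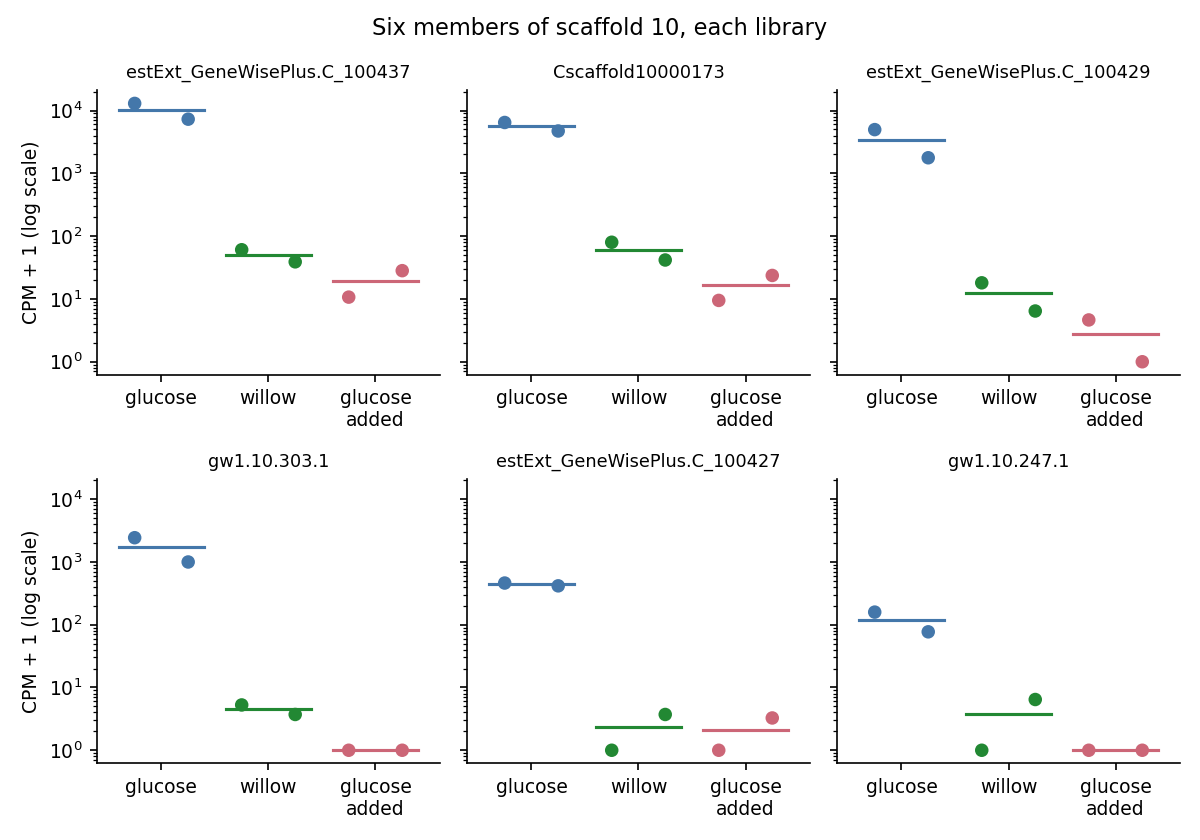
CPM + 1 on a log scale (vertical axis) of the 6 members of scaffold 10 in each culture (points, A left and B right) with the mean of each condition (bars). In every panel the glucose points are at least 10 times above all other points, and after glucose addition 2 of the models have no count in either library.

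Other members that fell on willow rose again after glucose addition, and 4 of them are named here after their values were seen. The model estExt_GeneWisePlus.C_40016 (1746 bp) was at 899 and 1266 CPM on glucose, 25.6 and 40.7 on willow, and 286 and 222 with glucose added. Each condition was separate from the others, with the glucose-added pair in between. Its log2 fold changes were -5.04 ± 0.43 for willow against glucose (edgeR, adjusted p = 1.09e-09), 2.96 ± 0.42 for glucose-added against willow (5.79e-06) and -2.09 ± 0.35 for glucose-added against glucose (0.000104). On the same scaffold 4, estExt_C_40012 (696 bp) was at 194 and 399 CPM, then 17.1 and 2.71, then 49.6 and 24.9 in the same order of conditions. On willow it fell by 4.78 ± 0.56 (edgeR, adjusted p = 2.77e-07), and its rise after glucose addition (1.86 ± 0.64, adjusted p = 0.0249) was lost without glucose-added replicate A or willow replicate B.

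On scaffold 8 the first model of its series, estExt_C_80001 (1066 bp), was at 1478 and 1251 CPM on glucose, 100.2 and 171 on willow, and 489 and 823 with glucose added. It fell by 3.34 ± 0.40 on willow (edgeR, adjusted p = 3.55e-07) and rose by 2.28 ± 0.39 after glucose addition (6.71e-05). The longest member, estExt_C_30836 (18855 bp), was at 36.3 and 72.3 CPM on glucose, 10.7 and 8.14 on willow, and 54.5 and 54.4 with glucose added. It fell by 2.49 ± 0.60 on willow (edgeR, adjusted p = 0.00209) and rose by 2.49 ± 0.60 after glucose addition (0.00229). Glucose and glucose-added libraries overlapped for this model, with a difference of -0.00 ± 0.45.

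The largest rise on willow was that of estExt_C_160087, a 1073 bp model of scaffold 16. It was at 1.34 and 0 CPM on glucose, 2002 and 1749 on willow, and 3.63 and 13.6 with glucose added. Both willow libraries were more than 100 times above all others. The model could reach the limit on summed counts only through willow, so its direction was set by the choice of members. With 1 count on glucose, the ratio of willow to glucose was 3003 (exact 95% counting interval 538 to 118692, edgeR adjusted p = 1.45e-11). It fell after glucose addition by 7.95 ± 0.54 (edgeR, adjusted p = 1.58e-10). The remaining difference between glucose-added and glucose cultures (3.19 ± 1.10, adjusted p = 0.0434) was lost without glucose replicate B (0.26), without glucose-added replicate B (0.354), with total-count scaling (0.0502) and in DESeq2 (0.113). Its run of models had An10g01070 on one side and An17g00210 on the other, so that identifiers of different CBS 513.88 contigs flanked it.

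Second was Cscaffold3000147 (384 bp), between An06g00930 and An06g00940. It stood at 2.69 and 0 CPM on glucose, 629 and 97.6 on willow, and 2.42 and 2.27 with glucose added. The willow libraries were above all others but more than 4-fold apart from each other. This model too could reach the limit on summed counts only through willow, so its direction was set by the choice of members. With 2 counts on glucose, willow was 314-fold higher (exact counting interval 86.2 to 2602, edgeR adjusted p = 6.65e-08). With 3 counts, glucose-added cultures were 167-fold below willow (exact counting interval 56.6 to 814, edgeR adjusted p = 3.25e-07). Of the 5 matched genes from An06g00900 to An06g00950, a window wider than its flanks, 3 were tested and all 3 were called higher on willow. Among these, An06g00900 (47 and 18 counts on willow) and An06g00940 (41 and 8) had no count on glucose. They could pass the filter on low counts only through willow, so their direction was set by the filter.

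Further members that rose on willow, named after their values were seen, were at lower levels. Also on scaffold 16 and between An10 and An17 identifiers, fgenesh1_pm.Cscaffold16000047 (1749 bp) was at 13.4 and 28.4 CPM on glucose, 207 and 201 on willow, and 7.26 and 11.3 with glucose added. It rose by 3.26 ± 0.43 on willow (edgeR, adjusted p = 1.95e-06) and fell by 4.50 ± 0.51 after glucose addition (2.10e-07). The model numbered just before it, fgenesh1_pm.Cscaffold16000046 (684 bp), went the other way, at 245 and 214 CPM on glucose, 2.13 and 5.42 on willow, and 14.5 and 20.4 with glucose added. With 3 counts on willow, it was 63.8-fold below glucose there (exact counting interval 21.7 to 311, edgeR adjusted p = 1.04e-08).

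A model of scaffold 19, estExt_GeneWisePlus.C_190240 (4080 bp), was at 22.8 and 43.8 CPM on glucose, 399 and 488 on willow, and 60.5 and 49.9 with glucose added. Its rise on willow was 3.71 ± 0.39 (edgeR, adjusted p = 4.00e-08) and after glucose addition it fell by 2.98 ± 0.37 (adjusted p = 1.07e-06). For e_gw1.6.978.1 (1137 bp) the levels were 4.03 and 5.92 CPM on glucose, 109 and 171 on willow, and 50.9 and 72.5 with glucose added. All 3 conditions were apart, and glucose was lowest. It rose by 4.74 ± 0.54 on willow (edgeR, adjusted p = 1.45e-07) and stayed above glucose after glucose addition by 3.54 ± 0.55 (5.13e-05).

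**Figure D5:**
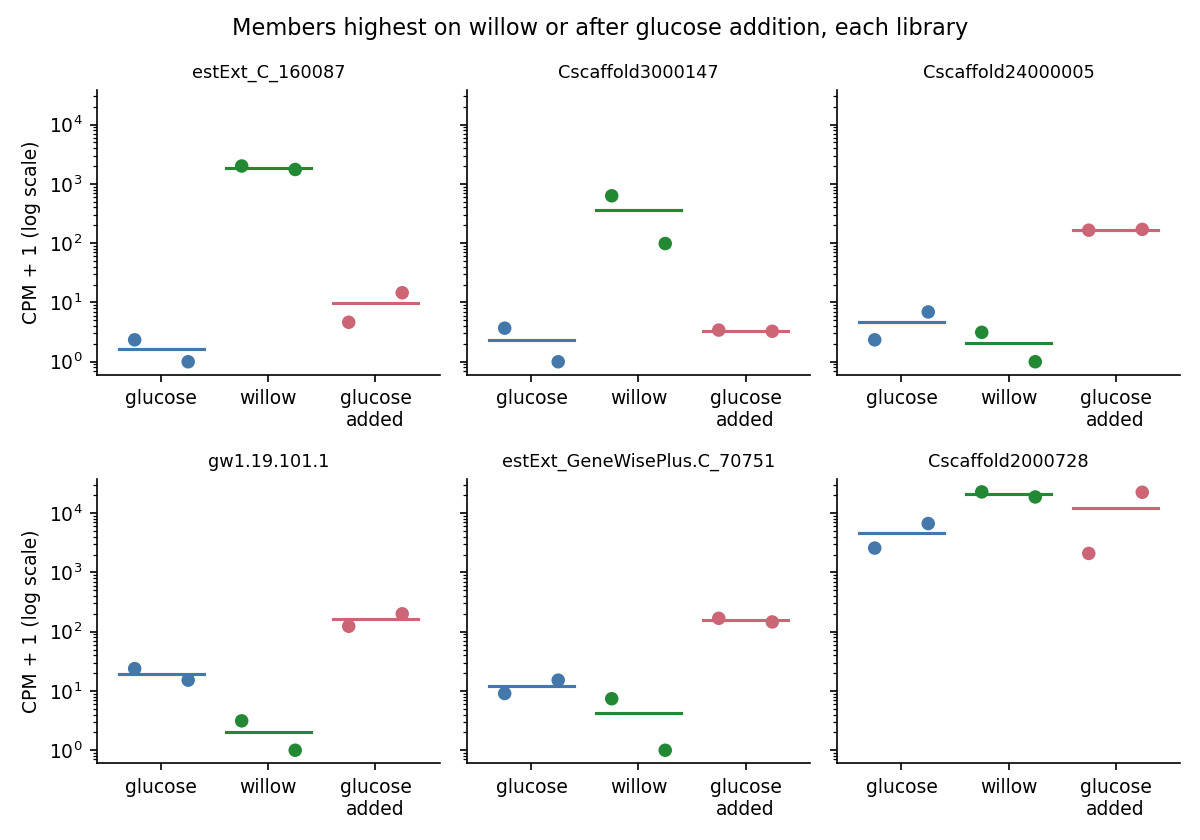
CPM + 1 on a log scale (vertical axis) of 6 members in each culture (points, A left and B right) with the mean of each condition (bars). The upper left panels show the 2 members read almost wholly on willow, the next 3 those highest after glucose addition, and the last shows Cscaffold2000728, whose glucose-added cultures were at 2089 and 22475 CPM.

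When glucose was added to willow cultures, 31 members rose and 34 fell against willow (edgeR, adjusted p threshold 0.05). These were 21.2% and 23.3% of the members, beside 17.2% and 20.5% of all tested genes and 22.4% and 21.9% of matched genes. The median log2 fold change was 0.06 for members, 0.05 for all tested genes and 0.11 for matched genes, and it was the same with the 2 members that had no count in a group set to the limit of 3 counts. Groups did not overlap for 54 members higher and 52 lower, against 34.6% and 33.9% of all tested genes and 38.7% and 34.1% of matched genes. With total-count scaling 44 were higher and 29 lower, as the median of all tested genes moved by 0.30. Upper quartile scaling moved it by 0.12. Without glucose-added replicate A, 19 members were called lower.

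The largest rises against willow were those of models with few counts in the other conditions. Such models could reach the limit on summed counts only through the glucose-added libraries, so their direction was set by the choice of members. Cscaffold24000005 (837 bp), which had no matched model before it on scaffold 24, was at 1.34 and 5.92 CPM on glucose, 2.13 and 0 on willow, and 165 and 170 with glucose added. The glucose-added pair stood alone, at 167 ± 3.74 CPM (SD, n = 2). With 1 count on willow, the ratio was 139 (exact counting interval 24.8 to 5535, edgeR adjusted p = 1.71e-07). Against glucose it rose by 5.40 ± 0.57 (edgeR, adjusted p = 2.38e-07).

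The second, gw1.19.101.1 (1086 bp), was at 22.8 and 14.2 CPM on glucose, 2.13 and 0 on willow, and 122 and 199 with glucose added. The order of the conditions was the same in both cultures, with willow lowest and glucose-added highest. With 1 count on willow, glucose-added cultures were 125-fold higher (exact counting interval 22.2 to 4960, edgeR adjusted p = 2.17e-07). Against glucose the rise was 3.10 ± 0.46 (edgeR, adjusted p = 3.02e-05).

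Among those chosen for glucose-added against glucose, estExt_GeneWisePlus.C_70751 (1397 bp) was at 8.06 and 14.2 CPM on glucose, 6.40 and 0 on willow, and 167 and 145 with glucose added. Glucose and willow were both low and did not overlap, but their difference did not pass the test (edgeR adjusted p = 0.172). Its rise over glucose was 3.77 ± 0.50 (edgeR, adjusted p = 6.41e-06). Over willow, with 3 counts, the ratio was 44.5 (exact counting interval 15.0 to 218, edgeR adjusted p = 8.38e-07). This model could likewise reach the limit on summed counts only through the glucose-added libraries, so its direction was set by the choice of members.

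Members highest after glucose addition at a greater level were Cscaffold2000578 and estExt_GeneWisePlus.C_50115, both named after their values were seen. Cscaffold2000578 (420 bp, between An02g08270 and An02g08210) was at 129 and 96.0 CPM on glucose, 177 and 193 on willow, and 787 and 1244 with glucose added. It rose against willow by 2.46 ± 0.36 (edgeR, adjusted p = 9.15e-06) and against glucose by 3.17 ± 0.37 (8.45e-07). For estExt_GeneWisePlus.C_50115 (2066 bp) the levels were 28.2 and 15.4 CPM, then 32.0 and 62.4, then 232 and 240.2. It rose against willow by 2.35 ± 0.41 (edgeR, adjusted p = 8.11e-05) and against glucose by 3.44 ± 0.42 (1.70e-06).

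Compared with glucose cultures, glucose-added cultures had 17 members higher and 30 lower (edgeR, adjusted p threshold 0.05). These were 11.6% and 20.5%, beside 10% and 8.87% of all tested genes and 12.4% and 11% of matched genes. The median log2 fold change was -0.21 for members, 0.01 for all tested genes and 0.03 for matched genes. Groups did not overlap for 32 members higher and 66 lower, against 29% and 28.8% of all tested genes and 31.8% and 29% of matched genes. Total-count scaling moved the median of all tested genes by -0.13 here. Without the 6 members of scaffold 10, 17 were called higher and 24 lower of 140. Without glucose-added replicate A, 17 members were called lower. This comparison shares its libraries with the other comparisons, so the counts of the 3 are not independent.

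Among the members low after glucose addition were 3 of scaffold 5, named after their values were seen. The model estExt_C_50581 (3579 bp) was at 667 and 566 CPM on glucose, 294 and 336 on willow, and 132 and 150 with glucose added. The 3 conditions did not overlap. It was lower than glucose after glucose addition by a log2 fold change of -2.13 ± 0.33 (edgeR, adjusted p = 5.31e-05). Cscaffold5000592 (2697 bp) of the same scaffold 5 was at 267 and 270.1 CPM, then 149 and 73.2, then 43.6 and 36.3. Its difference between glucose-added and glucose cultures was -2.73 ± 0.39 (edgeR, adjusted p = 1.60e-05). For gw1.5.1636.1 (876 bp), also on scaffold 5, the levels were 64.5 and 61.6 CPM on glucose and 81.0 and 81.4 on willow, and glucose-added cultures were at 8.48 and 9.06. Willow against glucose did not pass the test (0.36 ± 0.41, edgeR adjusted p = 0.544). It fell against willow by 3.19 ± 0.52 (edgeR, adjusted p = 3.91e-05) and against glucose by 2.83 ± 0.51 (0.000287).

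Not all calls held in every setting. Of the 55 member calls on willow against glucose, 13 of 23 higher and 20 of 32 lower were made under every alternative (at most 14) in which they could be tested. For glucose-added against willow these were 15 of 31 and 15 of 34, and for glucose-added against glucose 10 of 17 and 17 of 30. All but 1 of the calls that were lost were lost when some library was left out.

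The members lay more often at the edges of the matched gene order than matched genes did. A scaffold could be read from the identifier of 145 members, and 104 belonged to series whose numbers follow the scaffold: of adjacent matched models in these series, 97.6% to 99.3% had identifiers of the same CBS 513.88 contig. Of the 104, 50 stood next to another model without an identifier (48.1%, against 11.4% of 2457 matched genes in the same series), and 34 next to another member. No matched model was found on one side for 32 (30.8%, against 5.49%). Identifiers of different contigs were on the flanks of 16 (15.4%, against 1.22%), most of them on scaffolds 7 and 16. Members of the same run share their flanks and were each counted, so these are not numbers of separate places in the genome. A matched gene could lack a matched model on one side only as the first or last matched model of its series on a scaffold. Likewise only matched genes directly beside a change of contig could have flanks on different contigs. Every member of a run there counted, so part of both contrasts is built into the measure. The remaining 54 had no other model without an identifier next to them. Next to means within the same series, and models of other series can lie between. These positions rest on the numbers in the model names, since no coordinates were used, and the differences were not tested.

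Replicates of a few members differed more than those of most genes. Among members with at least 50 counts in 1 library of a condition, 1 of 121 differed over 4-fold between the glucose cultures, 2 of 81 between the willow cultures and 1 of 98 between the glucose-added cultures. For matched genes the shares were 0.121%, 0.188% and 0.261%. The members were e_gw1.973.2.1 on glucose and on willow, Cscaffold3000147 on willow and Cscaffold2000728 with glucose added. The model e_gw1.973.2.1 (150 bp), named after its values were seen, was at 52.4 and 243 CPM on glucose, 537 and 127 on willow, and 64.2 and 58.9 with glucose added. Its high culture was B on glucose and A on willow, and its fall from willow to glucose addition (-2.44 ± 0.57, edgeR adjusted p = 0.00164) was lost without willow replicate A and in DESeq2.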

How the data were processed

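For each library the authors deposited read counts per gene model, as whole numbers, per the file headers. Beside them the authors deposited RPKM values. The submitters' processing notes name HTSeq; aligner and genome build were not given in the sources used here. RPKM had been scaled to all entries of a library, since with that total the lengths of 100% of 21307 values (genes over 20 counts) came out whole within 0.01 bp. Gene lengths were taken from this relation. Another 5 entries, which name no gene, held 96.9% to 98.5% of reads and entered neither library sizes nor tests. HTSeq leaves out multiply aligned reads, so near-identical genes may be undercounted, and strand handling is not given.

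The test was edgeR 4.0.16 quasi-likelihood (glmQLFit, glmQLFTest, two-sided; R 4.3.3) in 1 fit of the 6 libraries by group, with TMM factors and the filterByExpr filter (count 10, total 15). It kept 6181 genes, all 146 members included, and left 3 residual degrees of freedom. P-values were Benjamini-Hochberg adjusted over the 6181 genes. CPM is the count scaled to 1e6 reads of the TMM-adjusted library size. Standard errors divide each log2 fold change by the root of its F statistic. The biological coefficient of variation was 25.8%, and the cultures of a condition differed beyond sampling noise (chi-square per degree of freedom 8.43 to 14.0). Ratios with 1 to 3 counts have exact 95% intervals, and those against no count use 3 counts over both libraries. Intervals cover counting error only. Cultures A and B are duplicates per the series' design text.

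Members named by rule are the 5 with the largest mean RPKM, the 2 called non-overlapping members with the largest and smallest fold change in each comparison, and those at the limit of 150 counts. Other members were named after their values were seen. The members and lists were chosen with earlier results of these data known. The script was tested on simulated data. Alternatives were RLE, total-count and upper quartile scaling, other filters and membership limits, DESeq2 1.42.0, 2-group fits, a replicate block and leaving out each library. Python 3.11.15, numpy 2.4.6, pandas 2.3.3, scipy 1.17.1 and matplotlib 3.10.9 were used.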

Additional observations from a re-analysis of the deposited data

How the results depend on the processing

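The share of reads in members reversed in these settings: willow minus glucose became 0.705 percentage points without the 6 members of scaffold 10 and 0.447 without these and gw1.1194.1.1; glucose-added minus glucose became 0.285 and 0.516; glucose-added minus willow became 0.0199 over all reads, 0.0622 without gw1.1194.1.1, 0.0692 without it and the 6, and 0.402 without glucose-added replicate A. The settings without the 6 were chosen after seeing the data. Since the 6 were picked for being high on glucose, a lower glucose share without them followed from the choice. Leaving out each library gave -2.22 to -1.25 points for willow minus glucose, -1.26 to 0.402 for glucose-added minus willow and -2.99 to -1.34 for glucose-added minus glucose. The causes were not tested.

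Members called higher and lower changed with the limit of summed counts, which by construction alters their number: at 50 counts (250 models) 39 were higher on willow, and 55 were lower after glucose addition against willow; at 500 counts (62 models) the numbers were 6 and 14, 11 and 17, and 4 and 16 in the 3 comparisons. Total-count scaling gave 58 members and 1527 genes lower on willow (837 otherwise). The filter of 50 counts in 2 libraries, which tests 2743 genes, gave 554 and 502 genes on willow against glucose (1089 and 837 otherwise), 596 and 701 on glucose-added against willow (1066 and 1270), and 372 higher against glucose (620).

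Leaving out each library in turn gave 18 to 23 members higher and 26 to 36 lower for willow against glucose, 21 to 33 and 19 to 36 for glucose-added against willow, and 13 to 20 and 17 to 35 for glucose-added against glucose. Over all tested genes the ranges were 926 to 1157 and 671 to 880, 713 to 1163 and 783 to 1338, and 361 to 752 and 270 to 687; the lowest values of the last 2 comparisons came without glucose-added replicate A. A lone culture left in a group was assumed to vary like the others.

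The letters A and B recur in every condition, and deviations of same-letter libraries correlated at -0.0137 (glucose and willow), 0.12 (glucose and glucose-added) and 0.167 (willow and glucose-added). Culture B also had the larger multiply aligned share in every condition, and the cause was not tested. With the replicate block 27 members were higher and 34 lower, 34 and 40, and 18 and 32 in the 3 comparisons, all within 1.5 times of the counts without it. For the members named by RPKM or fold change and the 6 of scaffold 10, 374 values of their calls under the alternatives kept direction and side of the threshold, 14 lost the call and 0 reversed. Members named otherwise are not in these numbers: the call of MWR_mwrfum1 on willow was lost in 10 of 13 alternatives. The depth limits what can be seen: 3 counts are 3.87 to 6.90 per 1e6 reads counted to genes in a library.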
